A study of Mus musculus with 8 samples.

Results

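Ret, Ednrb, Sox10, Tubb3, Elavl4, Erbb3 and Stmn2, a set of genes that mark enteric neural crest cells and neurons, were followed in sorted gut cells of mouse embryos. They were 7 of the 19057 genes to which the array annotation gave a probe of their own. Every probe annotated with one of these symbols was taken, whatever its values, which gave 15 of 45281 probes. No measured value entered the choice of a probe.

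The enteric nervous system derives from neural crest cells that enter the foregut and migrate through the gut mesenchyme towards its anal end, while they divide and become neurons and glia. The receptor tyrosine kinase RET, bound by GDNF that the mesenchyme secretes, and the endothelin receptor type B, bound by endothelin 3, drive this colonisation, and SOX10 keeps the crest cells in their progenitor state. Loss of RET, EDNRB or SOX10 function leaves a stretch of gut without ganglia in mice and in people. These cells are neighbours of the Bapx1-expressing mesenchyme and a different lineage from it.

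RNA was taken at E12.5 from gut cells that carried enhanced green fluorescent protein (EGFP) at the Bapx1 locus, in embryos of the strain C57BL/6J;129, after fluorescence-activated cell sorting, and was hybridized to Illumina MouseWG-6 v2 BeadChips. The Bapx1 null group held 4 samples from embryos homozygous for the tm4.Tlu allele, in which EGFP stands directly behind the start codon and replaces a short stretch of the gene. The wildtype group held 4 samples from Bapx1 +/tm2.Tlu embryos, in which an internal ribosome entry site and EGFP follow the intact coding region in the 3′ UTR. The groups therefore also differed in the number of EGFP alleles, which cannot be told apart from the loss of Bapx1, and in both groups EGFP came from the endogenous Bapx1 promoter. The methods of the study call the 4 samples of a genotype biological replicates, and the sources used here do not give the number of embryos behind a sample, so that the p-values measure the spread between these samples.

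Bapx1 itself (Nkx3-2) had 2 probes, and both were detected on 4 of 4 Bapx1 null arrays and on 0 of 4 wildtype arrays. This order is the opposite of the group names. The null allele lacks only sequence next to the start codon and where in the transcript the probes lie was not examined, so they do not check the genotype, and every direction below rests on the labels. Between 31.0% and 38.5% of probes were detected on the Bapx1 null arrays, against 38.2% to 40.0% on the wildtype arrays. Bapx1 null replicates 2 and 3 stood apart from the other arrays on the first principal component, which held 57.5% of the variance, and the values of the members and of the gene lists without both are given below. Of the 9 genes on the gut mesenchyme list 8 had a probe, and all 8 passed the detection filter. Among them were Pdgfra, a mesenchymal growth factor receptor, and Nkx2-3, a homeobox gene of the gut wall, each detected on all 8 arrays.

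A probe was called detected on an array at a detection p under 0.01 against the negative control beads of that array. Of the 15 probes of the members, 3 were detected on all 8 arrays, compared with 29.5% of all probes of the array, and 6 were detected on none, compared with 56.3%. The probes detected throughout belonged to Ednrb and Stmn2. A probe was kept for testing when it was detected on at least 4 of the 8 arrays, which held for 6 of the 15 probes and for 38.5% of all probes. These 6 probes measured 5 of the 7 genes, whereas Tubb3 and Erbb3 had no probe that passed.

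**Figure D1:**
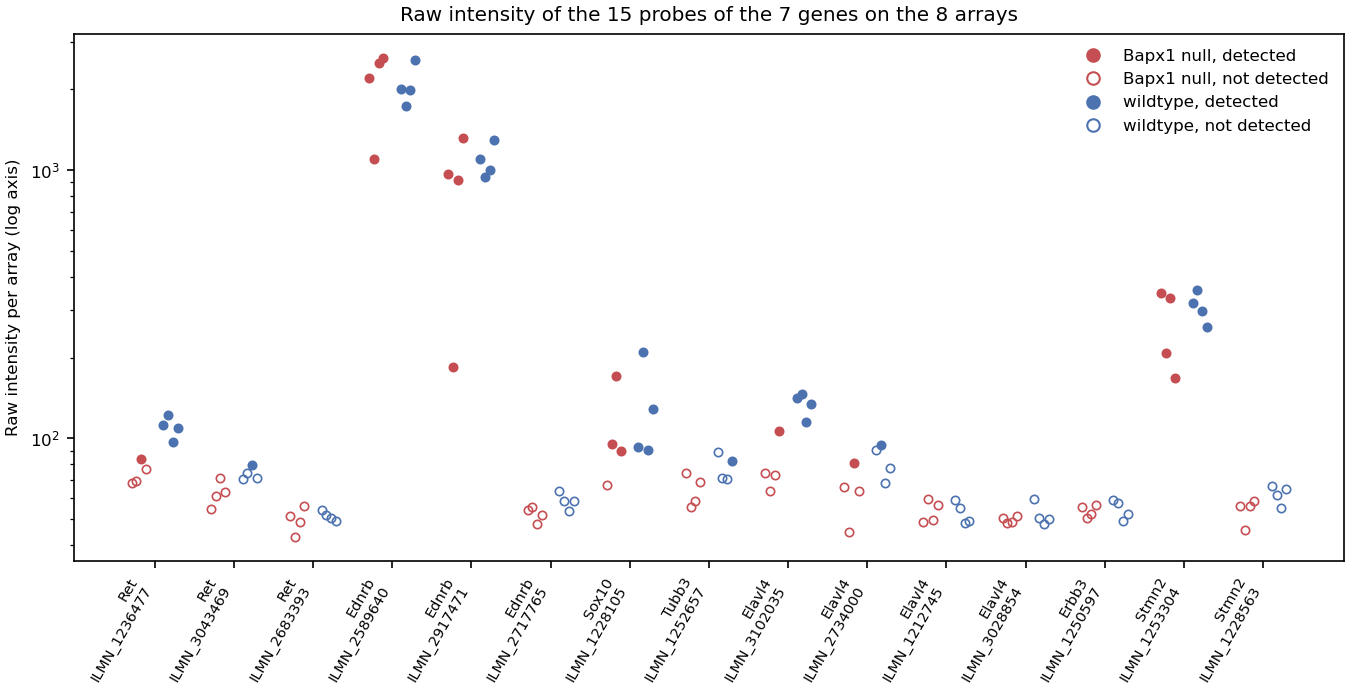
Raw fluorescence intensity (log axis) of each of the 15 probes on the 8 arrays, with Bapx1 null arrays in red left of wildtype arrays in blue. Filled points were detected and open points were not. The first probes of Ret and Elavl4 sat lower on all 4 Bapx1 null arrays than on any wildtype array, and the probe of Erbb3 was open on all 8.

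In the comparison of the genotypes, no member passed the adjusted threshold. The count was 0 of 5 measured members at an adjusted p under 0.05 (limma, adjusted over 9784 genes), where 0.787% of all genes tested passed. At an unadjusted p under 0.05 it was 2 of 5, Elavl4 with a lower and Ednrb with a higher level in Bapx1 null, where 27.0% of all genes tested were under that level. Of all genes tested, 9.73% were under it with a lower level in Bapx1 null and 17.2% with a higher one. The test that the methods describe, with a single factor and no moderation, also called 0 members. The 2 genotypes did not overlap on the normalized log2 scale in 1 of 5 members, Elavl4, and in 18.6% of all genes tested. In sorted bulk RNA of this kind, fewer cells of a type and less RNA per cell cannot be told apart.

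Ret encodes the receptor tyrosine kinase that receives GDNF. The raw intensity of its brightest probe (ILMN_1236477) was 68.4, 69.5, 83.7 and 76.6 in the 4 Bapx1 null samples, against 112.4, 121.7, 97.1 and 109.1 in the 4 wildtype samples. Every wildtype sample lay above every Bapx1 null sample, and the probe was detected on 1 of 4 Bapx1 null arrays and on 4 of 4 wildtype arrays. The lowest intensity that counted as detected was 69.6 to 86.2 on Bapx1 null arrays and 79.1 to 92.7 on wildtype arrays, so that Ret stood near this limit in both genotypes.

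After background correction and quantile normalization the separation of Ret was gone. Its log2 intensity was 5.13, 6.26, 5.87 and 5.16 in Bapx1 null and 5.68, 6.13, 5.91 and 5.95 in wildtype. Bapx1 null replicate 2, among the lowest in raw intensity, became the highest of the 8 arrays. That array had a 75th percentile of raw intensity of 91.3, against 160.7 to 210 on the other Bapx1 null arrays and 184 to 249.2 on wildtype arrays. Ret averaged 5.60 ± 0.56 in Bapx1 null and 5.92 ± 0.19 in wildtype (mean ± SD, n = 4 each), a difference of -0.31 ± 0.25 (SE) with a 95% interval of -0.88 to 0.25 (limma, adjusted p = 0.413). Without Bapx1 null replicates 2 and 3 the difference of Ret was -0.86 (limma, adjusted p = 0.0519). A second Ret probe (ILMN_3043469) was detected on 0 of 4 Bapx1 null and 1 of 4 wildtype arrays, with raw intensities of 54.7 to 70.8 in Bapx1 null and 70.3 to 79.2 in wildtype, and the third (ILMN_2683393) was detected on none of the 8 arrays.

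Ednrb, the endothelin receptor type B, had 2 probes that were detected on all 8 arrays. The raw intensity of probe ILMN_2589640 was 2214.4, 1101.8, 2501.9 and 2625.1 in Bapx1 null and 2009.5, 1732.8, 1986.8 and 2579.7 in wildtype. The genotypes overlapped, and the lowest value belonged to Bapx1 null replicate 2. On the log2 scale the same probe gave 11.20, 11.03, 11.21 and 11.13 in Bapx1 null, against 10.45, 10.57, 10.95 and 11.08 in wildtype. Only wildtype replicate 4 reached into the range of the Bapx1 null samples. Means were 11.14 ± 0.08 in Bapx1 null and 10.76 ± 0.30 in wildtype (mean ± SD, n = 4 each). The difference was 0.38 ± 0.16 (SE), 1.3-fold, with a 95% interval of 0.02 to 0.74 (limma, adjusted p = 0.175), and it was 0.39 without Bapx1 null replicates 2 and 3 (adjusted p = 0.316).

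The second Ednrb probe did not give the same direction. ILMN_2917471 read 970.6, 184.4, 917 and 1314.5 raw units in Bapx1 null and 1102.3, 944.4, 1001.3 and 1292.3 in wildtype. Bapx1 null replicate 2 was far below the other 7 arrays. Its log2 intensity was 9.99, 8.51, 9.81 and 10.08 in Bapx1 null, against 9.52, 9.63, 9.90 and 9.99 in wildtype, a difference of -0.16 ± 0.32 (SE) with an interval of -0.89 to 0.56 (limma over 17440 probes, adjusted p = 0.75). Without Bapx1 null replicate 2 this difference was 0.20, and without replicates 2 and 3 it was 0.26. When the mean of the kept probes stood for each gene, the difference of Ednrb was 0.11 (limma, adjusted p = 0.747). The third Ednrb probe (ILMN_2717765) was detected on none of the 8 arrays.

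The split between the Ednrb probes was followed as the log2 ratio of the first to the second probe on each array. It was 1.20, 2.53, 1.40 and 1.05 in Bapx1 null and 0.92, 0.94, 1.05 and 1.08 in wildtype. Only Bapx1 null replicate 2 lay far from the rest. The same ratio was formed for the 3595 genes with at least 2 kept probes. Its median absolute deviation from each gene's median over the arrays was 0.17, 0.49, 0.30 and 0.09 on the Bapx1 null arrays and 0.09 to 0.12 on the wildtype arrays. Probes of single genes therefore disagreed most on Bapx1 null replicates 2 and 3 across the whole array. The deviation of Ednrb on replicate 2 was 1.46, at the 90.7th percentile of these genes.

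**Figure D2:**
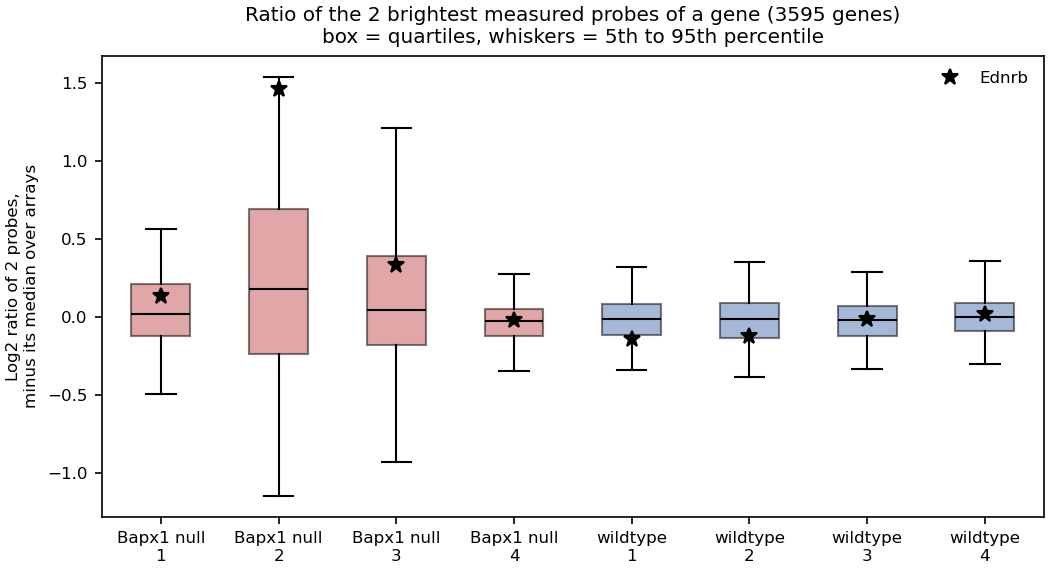
Log2 ratio of the 2 brightest kept probes of a gene, minus its median over the arrays, for 3595 genes on each of the 8 arrays (box, quartiles; whiskers, 5th to 95th percentile), with Bapx1 null arrays at the left. The star marks Ednrb, which reached 1.46 on Bapx1 null replicate 2 and lay between -0.14 and 0.33 on the other 7 arrays.

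Erbb3 encodes the neuregulin receptor of crest-derived glial and Schwann cell precursors. Its single probe (ILMN_1250597) was detected on none of the 8 arrays, with raw intensities of 50.3 to 56.5 in Bapx1 null and 49.2 to 58.7 in wildtype. These values do not separate the genotypes and give no level for the gene. In the fit without a detection filter, over 19057 genes, the difference was 0.05 ± 0.05 (SE), with an adjusted p of 0.637 (limma).

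Sox10 encodes the SRY-box transcription factor of migrating crest cells and glia. Its probe (ILMN_1228105) gave raw intensities of 66.9, 95.4, 170.6 and 89.5 in Bapx1 null, against 92.8, 210, 90.4 and 128.5 in wildtype. The highest value was wildtype replicate 2 and the lowest was Bapx1 null replicate 1, the only array without detection. On the log2 scale it read 5.05, 7.24, 7.23 and 5.52 in Bapx1 null and 5.31, 7.17, 5.75 and 6.25 in wildtype. Samples of the same genotype differed from each other by more than the genotypes did. Sox10 averaged 6.26 ± 1.14 in Bapx1 null and 6.12 ± 0.80 in wildtype (mean ± SD, n = 4 each), with a difference of 0.14 ± 0.55 (SE), a 95% interval of -1.10 to 1.37 and an adjusted p of 0.877 (limma). This interval reached past 1 log2 unit on both sides of 0, and without Bapx1 null replicates 2 and 3 the difference turned to -0.90 (adjusted p = 0.367).

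Elavl4 (HuD), an RNA-binding protein of postmitotic neurons, showed the clearest separation of the genotypes among the members. Probe ILMN_3102035 read 74.5, 63.7, 72.7 and 106.1 raw units in Bapx1 null, against 141.9, 146.6, 115.1 and 134.5 in wildtype. All 4 wildtype samples were above all 4 Bapx1 null samples, and only replicate 4 of the Bapx1 null arrays was detected, compared with 4 of 4 wildtype arrays. The log2 intensity was 5.40, 5.81, 5.50 and 5.87 in Bapx1 null and 6.11, 6.49, 6.26 and 6.33 in wildtype. The genotypes stayed apart after normalization, as in 6.36% of all genes tested with the lower values in Bapx1 null. Elavl4 averaged 5.64 ± 0.23 in Bapx1 null and 6.30 ± 0.16 in wildtype (mean ± SD, n = 4 each), a difference of -0.65 ± 0.15 (SE), 1.57-fold lower, with a 95% interval of -1.00 to -0.31. The p was 0.00177 before adjustment and 0.0792 after it (limma), so that it missed the threshold.

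Elavl4 was past the threshold under 2 of the 22 alternatives that could be fitted for it. With array weights the difference was -0.74 (limma, adjusted p = 0.0369), and without Bapx1 null replicate 4, the one on which it was detected, it was -0.72 (limma, adjusted p = 0.0382). Without that array 13.3% of all genes passed, and with array weights 2.06% did. Leaving out Bapx1 null replicates 2 and 3 also gave -0.72 (adjusted p = 0.0991). Since 3 of the 4 Bapx1 null values were at background, the difference in log2 includes values that the array could not resolve. Of the other Elavl4 probes, ILMN_2734000 was detected on 1 of 4 arrays of each genotype, with 44.7 to 81 raw units in Bapx1 null and 68.4 to 94.4 in wildtype, which overlapped. ILMN_1212745 and ILMN_3028854 were detected on none of the 8 arrays.

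Of the 6 kept probes of the members, those of Ret and Elavl4 passed the filter through the wildtype arrays, being detected on all 4 of them and on 1 Bapx1 null array. Of all kept probes, 3.03% were detected on all 4 wildtype and on at most 1 Bapx1 null array. A probe with at most 1 detection in Bapx1 null could pass only with at least 3 in wildtype, so that this pattern of detection is largely set by the filter. In raw intensity both probes were lower in Bapx1 null without overlap, which held for 9.70% of all kept probes. The arrays also differed in overall signal between the genotypes, as given above. After quantile normalization the genotypes overlapped for Ret and stayed apart for Elavl4.

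Stmn2 (SCG10), a microtubule-destabilizing phosphoprotein of growth cones, was detected on all 8 arrays by probe ILMN_1253304. Raw intensities were 347.4, 208.4, 334 and 167.5 in Bapx1 null and 318.6, 355.9, 297.1 and 259.9 in wildtype. Replicates 2 and 4 of Bapx1 null were the lowest of the 8, while the other Bapx1 null arrays lay within the wildtype range. On the log2 scale Stmn2 read 8.42, 8.70, 8.32 and 6.72 in Bapx1 null, against 7.54, 8.08, 7.95 and 7.47 in wildtype. After normalization 3 Bapx1 null samples were above all wildtype samples and replicate 4 was below all of them. The means were 8.04 ± 0.89 in Bapx1 null and 7.76 ± 0.30 in wildtype (mean ± SD, n = 4 each), with a difference of 0.28 ± 0.38 (SE) and a 95% interval of -0.58 to 1.13 (limma, adjusted p = 0.636). Leaving out Bapx1 null replicate 4 gave 0.72 (limma, adjusted p = 0.0459), where 13.3% of all genes passed. Leaving out replicates 2 and 3 gave -0.19 (adjusted p = 0.833). The second Stmn2 probe (ILMN_1228563) was detected on none of the 8 arrays.

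Tubb3, the class III beta tubulin of neurons, was near the detection limit. Its only probe (ILMN_1252657) read 74, 55.2, 58.6 and 68.6 raw units in Bapx1 null, against 88.9, 71, 70.7 and 82.2 in wildtype, and was detected on 0 of 4 Bapx1 null and 1 of 4 wildtype arrays. The groups overlapped in replicate 1 of Bapx1 null. Without a detection filter, over 19057 genes, the difference was -0.17 ± 0.14 (SE), with an adjusted p of 0.545 (limma).

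**Figure D3:**
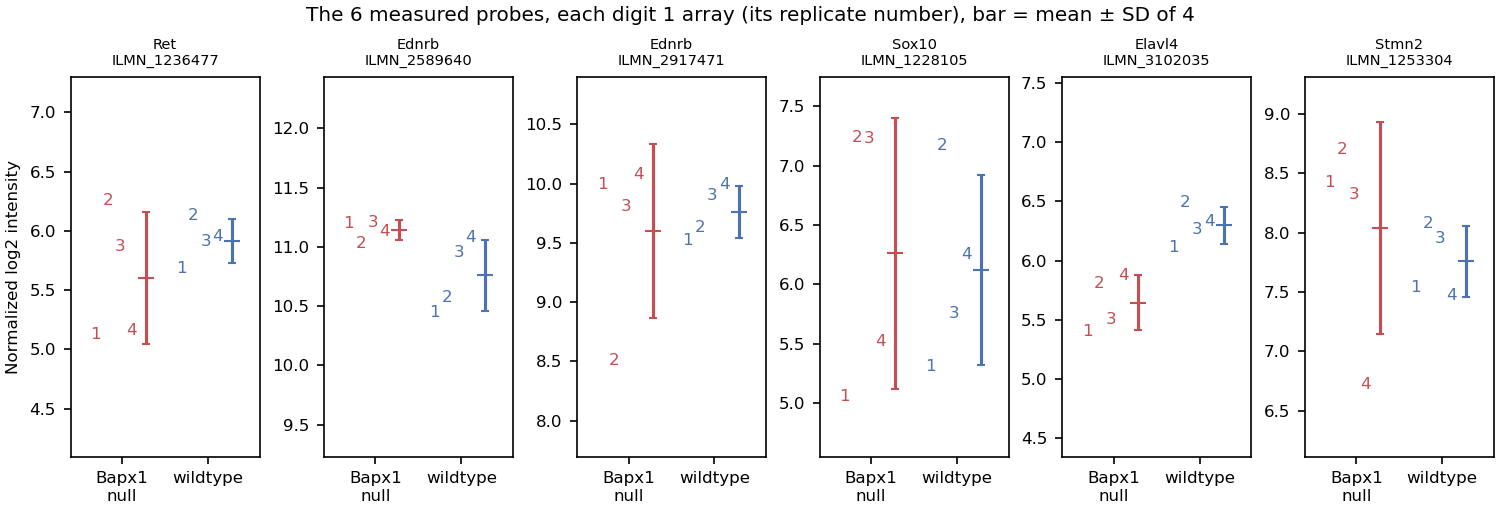
Normalized log2 intensity of the 6 kept probes in Bapx1 null (red, left) and wildtype (blue, right), each axis spanning the same number of log2 units. Each digit is the replicate number of 1 array and the bar is the mean ± SD of 4. The genotypes overlapped in every panel except Elavl4, where Bapx1 null lay between 5.40 and 5.87 and wildtype between 6.11 and 6.49.

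The members did not all vary together over the arrays. As a description over the 8 arrays, which share genotype and overall signal, the Pearson correlation of the normalized log2 values was 0.80 between Ret and Sox10, the highest of the 10 pairs of measured members, and -0.65 between Ednrb and Elavl4, the lowest. The genes nearest in pattern, by the same measure over 9784 genes, were Cyth4 (r = 0.949), Eri1 (0.937) and Laptm5 (0.936) for Ret. For Ednrb they were Prkcq (0.940), Hbp1 (0.918) and Gapvd1 (0.910), and for Sox10 they were Gal (0.941), Pcdh12 (0.931) and Nol7 (0.928). Elavl4 was followed most closely by Bclaf3 (0.951), Ankrd28 (0.949) and Etv5 (0.947), and Stmn2 by Satb1 (0.984), Elmo2 (0.959) and Ankib1 (0.95).

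The ligands and partners of the receptors were then examined. Gdnf, which attracts RET-bearing crest cells, was detected on all 8 arrays, with log2 intensities of 11.55, 11.94, 11.63 and 11.83 in Bapx1 null and 10.51, 11.37, 11.14 and 11.62 in wildtype. Bapx1 null replicate 1 lay inside the wildtype range and the other 3 lay above it. The difference was 0.58 ± 0.23 (SE), and it missed the adjusted threshold (limma, adjusted p = 0.153). Artn, which signals through RET with another co-receptor, differed by 0.88 ± 0.39 (SE, adjusted p = 0.182), and Gfra1, the co-receptor for GDNF, by 0.06 ± 0.27 (SE, adjusted p = 0.888). Without Bapx1 null replicates 2 and 3 the differences of Gdnf, Artn and Gfra1 were 0.51, 0.23 and 0.45. Nrtn, a further RET ligand, and Gfra2, its co-receptor, were detected on none of the 8 arrays. Of the 8 genes on the list of RET ligands and co-receptors, 3 were measured, 0 passed the test in either direction, and the median difference was 0.58, where that of all genes tested was 0.07.

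Genes downstream of RET gave both directions. In the list of adaptors and feedback genes 9 of 15 with a probe were measured, 0 passed and the median difference was 0.24. Etv5, an ETS transcription factor induced by RET signalling in other tissues, was lower in all 4 Bapx1 null samples, at 5.79 ± 0.09 in Bapx1 null and 6.42 ± 0.23 in wildtype (mean ± SD, n = 4 each), with a difference of -0.63 (limma, adjusted p = 0.0775). Dusp6, a phosphatase that damps ERK signalling, differed by -0.46 (adjusted p = 0.1), while the adaptors Shc1 and Ptpn11 differed by 0.56 (adjusted p = 0.13) and 0.01 (adjusted p = 0.964). The genotypes did not overlap for 4 of the 9, Etv5, Dusp6, Shc1 and the docking protein gene Gab1, where 18.6% of all genes tested did not overlap.

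For the endothelin receptor, the ligand gene Edn3 had 2 probes, and the brighter one (ILMN_2709083) was detected on 2 of 4 Bapx1 null and 1 of 4 wildtype arrays, too few to be kept. Its raw intensity was 79.4, 67, 81.8 and 113.1 in Bapx1 null and 82.6, 82.6, 76.9 and 89.7 in wildtype, with overlap. Ece1, the enzyme that cleaves the precursor of endothelin 3, was detected on all 8 arrays and differed by 0.43 ± 0.15 (SE, limma, adjusted p = 0.128), and its relative Ece2 by 0.44 ± 0.20 (SE, adjusted p = 0.189). For both genes every Bapx1 null sample lay above every wildtype sample, as for 12.2% of all genes tested. In this list 3 of 5 genes with a probe were measured, 0 passed and the median difference was 0.44.

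For the neuregulin receptor, Nrg1, its ligand, differed by 0.47 ± 0.17 (SE, limma, adjusted p = 0.142), and Erbb2, the partner with which ERBB3 signals, by 0.49 ± 0.14 (SE, adjusted p = 0.106). The related receptor Egfr differed by 0.55 ± 0.18 (SE, adjusted p = 0.124). Of 9 genes with a probe 4 were measured and 0 passed, and the median difference was 0.52. The sign of the endothelin and neuregulin lists depended on the scaling. Without normalization between arrays the median of all genes was -0.45, and these lists stood at -0.09 for endothelin genes and -0.05 for neuregulin and ErbB genes, whereas the list of RET ligands and co-receptors stayed above 0, at 0.20.

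No gene of the other crest lists passed the adjusted threshold. Among 13 crest transcription factors with a probe 7 were measured, 0 passed and the median difference was 0.05. Isl1 and Hoxb5, which are also transcribed in gut mesenchyme, differed by -0.22 (limma, adjusted p = 0.551) and 0.12 (adjusted p = 0.652), and Sox9 by -1.12 (adjusted p = 0.189). Foxd3, Tfap2a, Tfap2b, Tlx2 and Pax3 were detected on none of the 8 arrays. In the list of crest surface and adhesion genes 5 of 12 were measured, 0 passed and the median difference was -0.17, with 2 genes above 0 and 3 below. Ngfr, the low-affinity neurotrophin receptor used to sort crest cells, had a mean of 9.29 ± 0.77 in Bapx1 null and 8.15 ± 0.33 in wildtype (mean ± SD, n = 4 each), a difference of 1.14 ± 0.34 (SE, adjusted p = 0.114), and the adhesion molecule gene Ncam1 differed by 0.53 (adjusted p = 0.174). Their 95% intervals, 0.37 to 1.90 for Ngfr and 0.02 to 1.03 for Ncam1, lay above 0, and without Bapx1 null replicates 2 and 3 the differences were 0.63 and 0.21. The guidance gene Sema3a, the cadherin gene Cdh11 and the integrin gene Itgb1 differed by -0.18, -0.39 and -0.17 (adjusted p = 0.635, 0.258 and 0.742).

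Glial genes were sparse. Of 8 with a probe 5 were measured, 0 passed and the median difference was -0.03, and S100b, Gfap and Dhh were detected on none of the 8 arrays. The myelin gene Pmp22 differed by -0.03 and Gas7 by 0.43 (limma, adjusted p = 0.92 and 0.201). Cnp differed by 0.59, Fabp7 by -0.36 and Mbp by -0.31 (adjusted p = 0.197, 0.507 and 0.381). Fabp7 and Mbp were the 2 measured genes of a shorter marker list for glia and Schwann precursors, with a median difference of -0.34. Without Bapx1 null replicates 2 and 3 the median of that shorter list was -0.59. Of the melanoblast list, another crest lineage, Kit was measured, a receptor also made by other cells (difference 0.23, adjusted p = 0.545), and Mitf, Dct, Tyr, Tyrp1 and Pmel were detected on none of the 8 arrays.

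Among the relatives of the neuronal members, the ELAV family genes Elavl1, which is expressed in most cells, and Elavl2 differed by -0.23 (limma, adjusted p = 0.386) and 0.36 (adjusted p = 0.449), and both by -0.03 without Bapx1 null replicates 2 and 3. Stmn1, the broadly expressed stathmin, differed by -0.78 (adjusted p = 0.182), with 1.52 when arrays were scaled by median and MAD, and Stmn3 and Stmn4 were detected on none of the 8 arrays. Of 11 tubulin genes with a probe 9 were measured and 1 passed, Tubb1, the beta tubulin of platelets and megakaryocytes. It was lower in Bapx1 null, at 5.20 ± 0.40 in Bapx1 null and 8.28 ± 1.15 in wildtype (mean ± SD, n = 4 each, limma, adjusted p = 0.0272), and was detected on 1 of 4 Bapx1 null and 4 of 4 wildtype arrays, so that it passed the filter through wildtype and the size of its difference is not resolved. Its call was lost without wildtype replicate 1, 2 or 4 or Bapx1 null replicate 3, and when Bapx1 null replicates 2 and 3 were both left out. The abundant tubulins Tubb5 and Tuba1b differed by 0.12 (adjusted p = 0.627) and -0.17 (adjusted p = 0.554).

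The medians of the neuronal cytoskeleton genes and of the synaptic genes lay on different sides of the median of all genes, except when arrays were scaled by median and MAD (1.01 for the synaptic genes and 1.05 for all genes), and 0 genes passed the threshold in either list. In the cytoskeleton and growth cone list 13 of 19 were measured and the median difference was -0.07. Gap43, a growth cone phosphoprotein, differed by -0.82 ± 0.30 (SE, limma, adjusted p = 0.137), whereas Dpysl2 and Dpysl4, of the collapsin response mediator family, differed by -0.07 (adjusted p = 0.771) and 0.13 (adjusted p = 0.488). In the synapse and secretion list 7 of 16 were measured, with a median difference of 0.52 and all 7 differences above 0, where 4 of 7 were above 0 with the processed values of the authors or without normalization between arrays. Without Bapx1 null replicates 2 and 3 the median was 0.24 and 4 of 6 were above 0. The vesicle gene Vamp2 differed by 0.52 (adjusted p = 0.142) and the vesicle-associated GTPase gene Rab3a by 0.70 (adjusted p = 0.108). Stx1a and Sv2a, both brighter than Rab3a, differed by 0.29 and 0.14 (limma, adjusted p = 0.483 and 0.59). Without Bapx1 null replicates 2 and 3, Vamp2 and Rab3a stood at 0.19 and 0.35, and Stx1a and Sv2a at -0.21 and -0.05. Snap25, Syn1, Chga and Chgb were among 9 genes of this list detected on none of the 8 arrays. The transmitter list had 5 of 16 genes measured, 0 passed and a median difference of 0.12. Its 5 measured genes lay on both sides of 0, with Slc5a7, the choline transporter of cholinergic neurons, at 0.83 ± 0.23 (SE, adjusted p = 0.104), Ddc, an enzyme of amine synthesis, at 0.12 (adjusted p = 0.668), the vesicular monoamine transporter gene Slc18a2 at -0.68 (adjusted p = 0.219) and the neuropeptide gene Npy at -0.56 (adjusted p = 0.307). Without Bapx1 null replicates 2 and 3 Slc18a2 passed the threshold, at -1.41 (limma, adjusted p = 0.0187), as did 0.654% of all genes. With all 8 arrays Slc18a2 was detected on 2 of 4 Bapx1 null and 4 of 4 wildtype arrays. Its wildtype detections alone met the filter, and the size of its difference is not resolved. The median of the 4 transmitter genes measured without these 2 arrays was -0.41.

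Leaving out Bapx1 null replicates 2 and 3 moved further list medians, where that of all genes was 0.03. The crest transcription factors turned to -0.11, the crest surface and adhesion genes to 0.21, the glial genes to 0.10, the ELAV genes to -0.03 and the tubulins to -0.04. The RET adaptors and feedback genes then stood at 0.09, the endothelin genes at 0.24, the cytoskeleton and growth cone genes at -0.22, the stathmin Stmn1 at -0.43 and Kit of the melanoblast list at 0.54, each on the same side of 0 as with all 8 arrays. The RET ligands and co-receptors stood at 0.45 and the neuregulin and ErbB genes at 0.41.

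**Figure D4:**
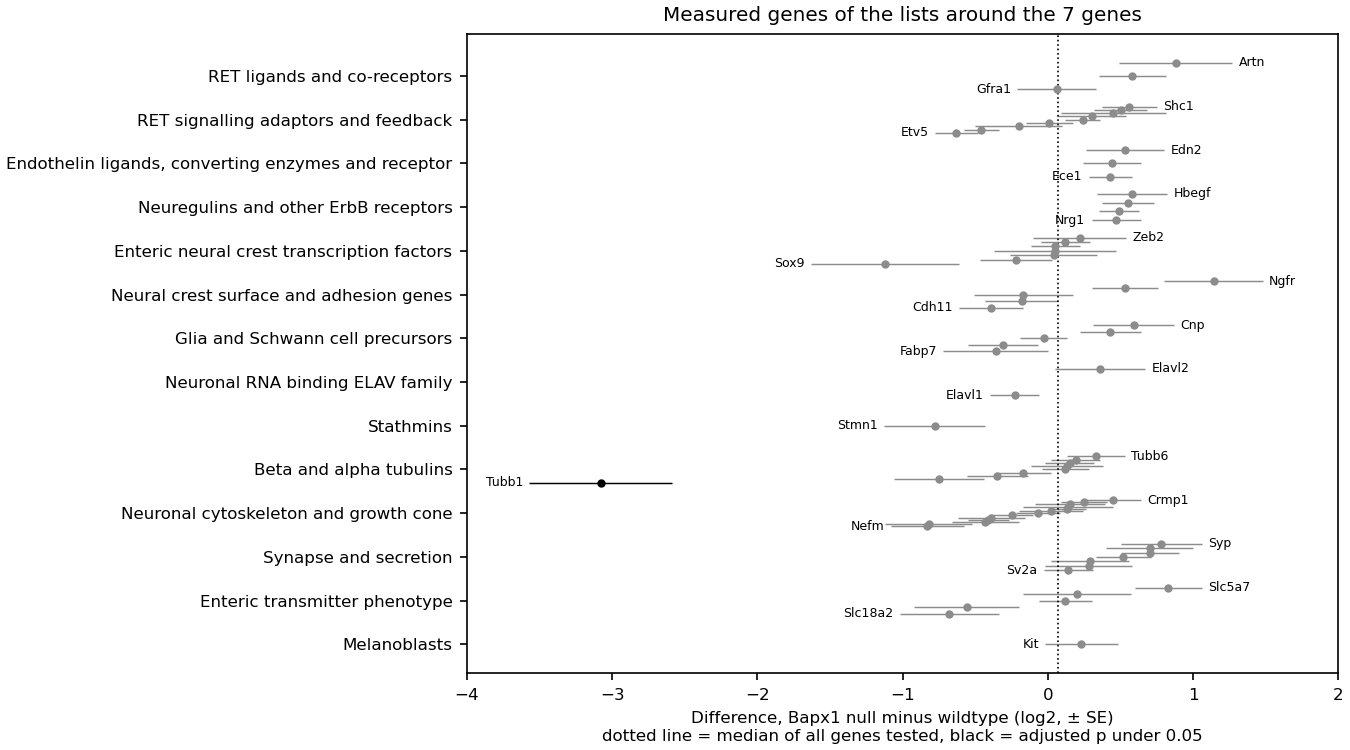
Difference between Bapx1 null and wildtype (log2, ± SE) for each measured gene of the 14 lists around the members, with the genes of a list one above the other and its lowest and highest gene named. The dotted line is the median of all genes tested, 0.07, and the 1 black point is Tubb1, at -3.08, the only gene of these lists past the adjusted threshold.

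The neuron marker list, which includes Elavl4 and Stmn2, had 8 of 16 genes measured and 0 past the threshold, with a median difference of -0.40 against 0.07 for all genes tested. Of the 8, 5 lay below 0 and 4 of these had an unadjusted p under 0.05, namely Elavl4, Gap43, Nefm and Uchl1. Of all genes tested, 9.73% had such a p with a lower level in Bapx1 null. Rtn1 also lay below 0, at -0.39 (limma, adjusted p = 0.27). Above 0 were Elavl2 at 0.36, Stmn2 at 0.28 and Dcx at 0.25 (adjusted p = 0.449, 0.636 and 0.318). Elavl4 had passed the filter through the wildtype arrays. Nefm, a neurofilament subunit, differed by -0.83 ± 0.25 (SE, limma, adjusted p = 0.114) and Uchl1, a neuronal deubiquitinase named here after its value was seen, by -0.41 ± 0.14 (SE, adjusted p = 0.127). The mean log2 intensity of the measured neuron markers ranged from 6.70 to 7.36 over the Bapx1 null arrays and from 7.35 to 7.54 over the wildtype arrays. Without Bapx1 null replicates 2 and 3 the median difference of the list was -0.53 with 7 of 8 below 0, and when arrays were scaled by median and MAD it was 0.26, against 1.05 for all genes. The crest marker list, which includes Ret, Ednrb and Sox10, had 7 of 10 genes measured, 0 past the threshold and a median difference of 0.14. This median was -0.17 with the processed values of the authors and 0.17 without Bapx1 null replicates 2 and 3. The list mean was 7.47 to 8.25 over the Bapx1 null arrays and 7.55 to 7.87 over the wildtype arrays. In mean signal Ret, Ednrb and Sox10 stood at percentiles 6.14, 87.1 and 12.9 of all genes tested. Whether the Ednrb signal came from crest cells was not tested.

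Markers of further cell types are given beside these values. Past the adjusted threshold was 1 gene, Tagln of the smooth muscle list, at 0.97 (limma, adjusted p = 0.0317). It was above background on 3 of 4 Bapx1 null and 1 of 4 wildtype arrays, so that it passed the filter mainly through Bapx1 null. The size of its difference is not resolved, and without Bapx1 null replicates 2 and 3 Tagln was not measured. In the hepatocyte, red cell, leukocyte, epithelium and endothelium lists 0 genes passed. The mean log2 intensity of 3 measured fetal hepatocyte genes (of 4) was 4.91 to 6.74 in Bapx1 null and 6.31 to 11.30 in wildtype, and that of 2 red cell genes (of 3) was 5.01 to 7.46 in Bapx1 null and 7.14 to 9.26 in wildtype. For 2 leukocyte genes (of 3) it was 4.59 to 6.48 in Bapx1 null and 6.30 to 7.42 in wildtype. For 3 gut epithelium genes (of 8) it was 6.84 to 7.18 in Bapx1 null and 7.24 to 8.22 in wildtype. For 3 endothelium genes (of 5) it was 5.21 to 6.00 in Bapx1 null and 5.69 to 6.34 in wildtype. Every measured gene of these 5 lists had a difference below 0, and without background correction 2 of the 3 endothelium genes did. The mean over 5 smooth muscle genes (of 6) was 10.29 to 10.58 in Bapx1 null and 8.63 to 9.55 in wildtype, without overlap. Without Bapx1 null replicates 2 and 3 the leukocyte genes Adgre1 and Csf1r passed the threshold, at -2.94 and -1.73 (limma, adjusted p = 0.0185 and 0.0234), against -2.02 and -1.02 with all arrays. Of all genes, 0.654% passed without these 2 arrays. With all arrays, Adgre1 and Csf1r were each detected on 1 of 4 Bapx1 null and 4 of 4 wildtype arrays. They passed the filter through wildtype, and the size of their differences is not resolved. Of 4 genes that respond to tissue handling, the immediate early genes Fos and Egr1 differed by -2.58 and -1.17, and Jun and the heat shock gene Hspa1a by 0.20 and 0.63 (adjusted p = 0.118, 0.124, 0.363 and 0.149). Alb of hepatocytes, Alas2 of red cells, Ptprc of leukocytes and Epcam of epithelium were detected on none of the 8 arrays. Every measured gene of the hepatocyte, red cell, leukocyte and epithelium lists was detected on all 4 wildtype arrays. Genes with few detections in Bapx1 null could pass the filter only through wildtype, so that this pattern is largely set by the filter. Afp of hepatocytes averaged 5.71 in Bapx1 null and 10.55 in wildtype, and Ttr 5.52 and 9.53. Hbb-y of red cells averaged 7.52 in Bapx1 null and 10.09 in wildtype, and Cdh1 of epithelium 5.72 and 6.75. Single samples of the genotypes overlapped for Afp, Ttr and Hbb-y but not for Cdh1, as in 6.36% of all genes tested with the lower values in Bapx1 null. The part of such cells and of handling in the values of the members was not tested.

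**Figure D5:**
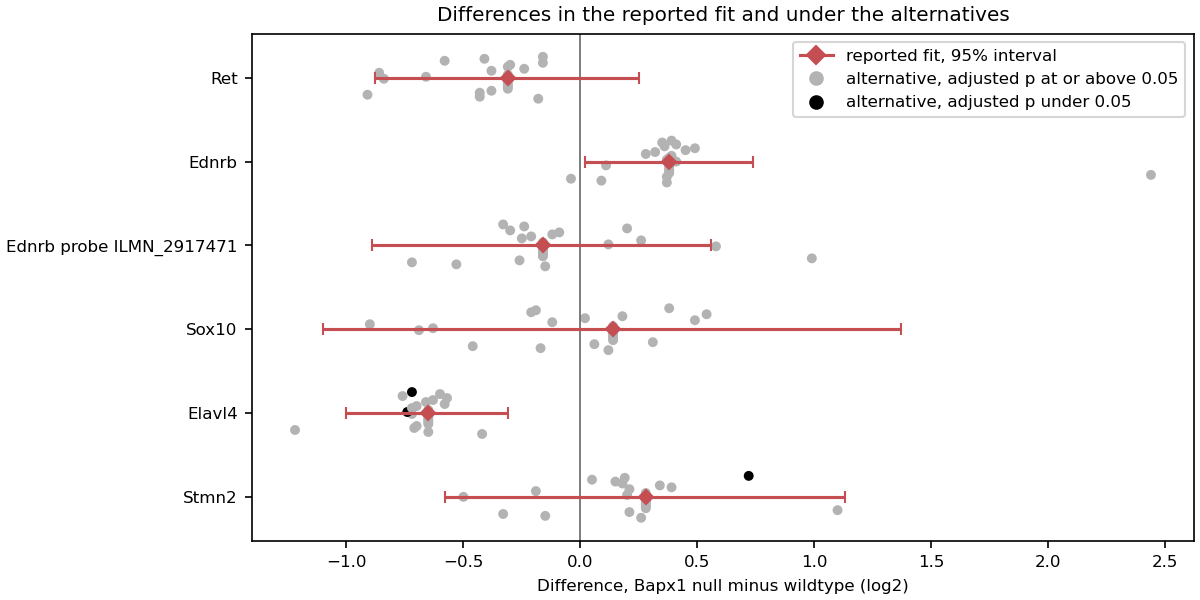
Difference between Bapx1 null and wildtype (log2) of the 5 measured members and of the second Ednrb probe, with the reported fit and its 95% interval in red and the alternatives as points (black, adjusted p under 0.05). Elavl4 lay below 0 throughout, between -1.22 and -0.42, and Ret between -0.91 and -0.16, whereas Sox10, Stmn2 and both Ednrb probes had points on either side of 0.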

How the data were processed

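Gut cells of E12.5 embryos were profiled on 8 arrays, grouped by genotype from the labels. The authors deposited 1 intensity per probe, exported with GenomeStudio, in which neither background subtraction nor normalization was seen, although the methods describe both. The score deposited beside it rose with intensity, and 1 minus this score was read as the detection p. The authors also deposited processed log2 values, centred on each array's median and on a baseline per probe of unknown origin (column medians -0.0112 to 0.0145). Here their direction and scale followed from the intensities. The 2 tables were joined over 45281 probes on differences between arrays, which matched within 1.84e-06 on the log2 scale, the nearest other row being 0.0151 away. A platform annotation named 34885 probes with a single gene. Its symbols and those of a RefSeq gene table did not differ.

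Intensities were background corrected by limma 3.58.1 in R 4.3.3 (nec with an offset of 16), quantile normalized and taken to log2. Probes with a detection p under 0.01 on at least 4 of 8 arrays were kept, and the kept probe with the highest mean stood for its gene. Differences, Bapx1 null minus wildtype, were tested with lmFit and eBayes over all 9784 genes, with Benjamini-Hochberg adjustment and a threshold of 0.05; the fit was first tested on simulated data. Array number limits the precision. Each list gave its genes past the threshold, or else the 2 to 4 brightest, as named genes, beside all members, the ligands and co-receptors of the receptors, and the 3 genes most correlated with each member. Members, lists and alternatives were chosen with earlier results of these data known. Alternatives covered background, normalization, filter, probe choice, test, covariate, array weights, replicate block and arrays left out. Same-numbered samples of the 2 genotypes did not deviate together (r = 0.15, -0.18, -0.06 and -0.14), so the numbers were not used as pairs.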

Additional observations from a re-analysis of the deposited data

How the results depend on the processing

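Elavl4 and Ret kept their direction under all 22 alternatives that could be fitted for them, with differences of -1.22 to -0.42 and -0.91 to -0.16 (adjusted p 0.0369 to 0.251 and 0.0519 to 0.682, limma). The count of members past the threshold was 0 except with array weights (1, Elavl4) and without single arrays, where it ranged from 0 to 2 (Elavl4 and Stmn2 without Bapx1 null replicate 4). Of all genes tested, 2.06% passed with array weights and 13.3% without Bapx1 null replicate 4. Requiring detection on all 8 arrays left Ednrb and Stmn2 to test.

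With the processed values of the authors, Sox10 and Stmn2 turned to -0.17 and -0.15, 8 genes in all were past the threshold in place of 77, and 0 genes of the pathway lists in place of 1. Without normalization between arrays Ednrb, Sox10 and Stmn2 turned to -0.04, -0.46 and -0.33, with 45 genes in all. Scaling by median and MAD turned the second Ednrb probe to 0.99 and left 0 genes in all (5067 at an unadjusted p under 0.05) and 0 of the lists. With the percentage of detected probes as covariate Sox10, Stmn2 and the second Ednrb probe turned to -0.69, -0.50 and 0.58, with 2 genes in all and 0 of the lists. Array weights turned Sox10 to -0.63 and the second Ednrb probe to 0.12, with 202 genes in all and 4 of the lists. Leaving out Bapx1 null replicates 2 and 3 turned Sox10, Stmn2 and the second Ednrb probe to -0.90, -0.19 and 0.26. No filter gave 49 genes in all and 0 of the lists, detection on all 8 arrays 0 of the lists, the mean of kept probes 2 of the lists, and the test of the methods 2 genes in all (2092 at an unadjusted p under 0.05) and 0 of the lists. The replicate number as a block gave 51 genes in all and changed no call of a member, and 1 of 4 Bapx1 null samples correlated best with its own number. Without single arrays 4 to 1288 genes passed in all and 0 to 8 of the lists. Leaving out Bapx1 null replicate 1, 2, 3 or 4 gave 94, 72, 5 or 1288 genes in all, and leaving out wildtype replicate 1, 2, 3 or 4 gave 4, 5, 22 or 4. Sox10 then ranged from -0.21 to 0.54 and the second Ednrb probe from -0.33 to 0.20. The cause of these shifts was not tested. Relative to the median of all genes (-0.45 to 1.05), Elavl4 and Ret stayed lower and the first Ednrb probe higher in Bapx1 null under every scaling tried. Signal over background limits Ret, Sox10 and Elavl4, and gives Tubb3 and Erbb3 no level.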
